A study of Mus musculus with 8 samples.

Results

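The transcription factors Gata2, Runx1, Tal1, Lmo2, Lyl1, Erg, Fli1, Meis1, Hlf and Mecom were examined in single hematopoietic stem cells (HSCs) of mice. These 10 genes were listed by name and not by a threshold on their values, although earlier results of these data were known when they were listed, and all 10 were among the 10720 genes of the table. The study compared HSCs of 2 genotypes of adult C57BL/6 mice, both with a conditional allele of Med23, which encodes a subunit of the Mediator complex. The WT group were Mx1-cre- Med23 L/L littermates, and the KO group were Mx1-cre+ Med23 L/L mice, in which poly(I:C) turns on the interferon-responsive Mx1 promoter and so the Cre recombinase, in blood cells but also in other tissues. Bone marrow cells were sorted as lineage-negative, Sca1-positive and c-Kit-positive cells with the phenotype CD150+CD34-CD48-, picked by hand and sequenced from the 3' end with unique molecular identifiers (UMIs), which count each captured molecule once. The WT label covers 304 cells and the KO label 282, from 4 libraries each, but the table gives only the genotype of a cell, so each label was 1 pool with no replicate.

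Several of these factors bind enhancers of blood stem cells together and are known for binding the regulatory DNA of one another's genes. Gata2 is a zinc finger protein that binds GATA motifs. Tal1 and Lyl1 are close relatives of the helix-loop-helix family, which bind E-box motifs as partners of E proteins, and Lmo2 is a bridge without DNA contact of its own that joins them to Gata2 through Ldb1. Runx1 binds DNA with Cbfb, Erg and Fli1 are ETS factors that endothelial cells use as well, and Meis1 is a homeodomain factor. Hlf, a PAR bZIP factor, and Mecom, a zinc finger protein also called Evi1, are among the genes that mark the most primitive HSCs.

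The pools were described before the members. A minimum of 2000 genes and 20000 UMIs kept 259 cells of the WT label and 234 of the KO label, with 21475782 and 16180546 UMIs in all and a range of 20038 to 496293 and 20027 to 467384 UMIs per cell. For Med23 there were 122 UMIs among WT cells and 117 among KO cells. Scaled to the UMIs of each pool, the log2 ratio of KO over WT was 0.35. The interval for counting error, -0.03 to 0.73, included equal levels. Without the cell with the most UMIs of Med23 in each label, the ratio was 0.13. The targeted gene was thus shown neither lower nor higher in the KO label by these counts. The study itself reported that Med23 was deleted efficiently in the blood system after poly(I:C). The UMIs of Med23 come from the 3' end. The sources used here do not say whether the deleted part reaches that end, so these counts may check nothing. WT and KO therefore stand below for the pools with these labels. All 14 HSC markers looked for were in the table, at a summed level of 1615 counts per 1000000 UMIs (CPM) in WT and 1428 in KO. None of the 14 was at least 1.5-fold higher in KO and 4 were that much lower, among them Vwf with 206 and 7 UMIs. Of the 14 myeloid markers 7 were in the table, at a summed 401.7 CPM in WT and 738.5 in KO, and 4 were at least 1.5-fold higher and 2 lower. Among the higher ones, Itgam and Tyrobp were picked by the study on these cells, so their direction is not independent evidence. Cells with over 1000 CPM of 24 oocyte markers numbered 66 in WT and 3 in KO. Those with at least 1000 CPM of 24 genes of the G2M phase, called cycling below, numbered 52 and 23. In WT the oocyte-marker cells held 66.0% of the UMIs of the G2M gene Cenpf and 51.4% of Birc5. They held 14.0% of Mki67 and 14.7% of Top2a of the same list. The WT cells called cycling may thus include oocyte-marker cells, and the overlap is not given here. The part of any of these in the values below was not tested, and ratios of the members without the oocyte-marker or cycling cells are given further on.

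For the 3 members whose level differed at least 1.5-fold between the pools, Hlf, Mecom and Meis1, the DNA around the annotated transcription start is shown. The counts do not tell from which start a transcript came. The windows are from RefSeq on build GRCm38.p6, run 5' to 3' on the strand of the gene, and hold 250 bases before the start and 50 after it. Capitals mark letters that members of the network are known to bind on either strand. The search for GATA motifs took AGATAA, besides it TGATAA, and with a last base changed AGATAG, besides it TGATAG. RUNX motifs were read from TGTGGT, while ETS motifs were read from CGGAAG or equally from AGGAAG. For the E-box the letters were CAGATG or equally CAGCTG, for Meis1 they were TGACAG, and for the PAR bZIP family they were TTACNNAA. No base is part of 2 marked motifs.
Hlf, chr11:90390868-90391167, minus strand: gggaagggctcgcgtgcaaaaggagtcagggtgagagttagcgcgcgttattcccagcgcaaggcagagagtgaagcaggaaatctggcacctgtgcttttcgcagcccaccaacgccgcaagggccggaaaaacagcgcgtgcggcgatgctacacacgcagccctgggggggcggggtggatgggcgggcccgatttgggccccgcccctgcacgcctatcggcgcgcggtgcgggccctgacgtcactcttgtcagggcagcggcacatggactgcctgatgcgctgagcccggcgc
Meis1, chr11:19018920-19019219, minus strand: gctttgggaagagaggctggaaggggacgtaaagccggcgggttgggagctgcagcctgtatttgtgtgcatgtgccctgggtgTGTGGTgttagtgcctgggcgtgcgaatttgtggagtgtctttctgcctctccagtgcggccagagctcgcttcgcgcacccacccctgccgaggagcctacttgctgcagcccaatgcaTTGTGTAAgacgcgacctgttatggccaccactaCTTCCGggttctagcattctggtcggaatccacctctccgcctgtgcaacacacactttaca
Mecom, upstream start, chr3:30509710-30510009, minus strand: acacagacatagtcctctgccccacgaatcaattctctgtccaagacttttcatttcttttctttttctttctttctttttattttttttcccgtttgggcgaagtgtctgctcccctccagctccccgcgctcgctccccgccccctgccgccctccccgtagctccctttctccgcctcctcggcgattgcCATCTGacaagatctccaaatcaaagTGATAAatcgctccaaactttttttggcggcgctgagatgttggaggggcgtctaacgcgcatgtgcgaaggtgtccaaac
Mecom, downstream start, chr3:30013155-30013454, minus strand: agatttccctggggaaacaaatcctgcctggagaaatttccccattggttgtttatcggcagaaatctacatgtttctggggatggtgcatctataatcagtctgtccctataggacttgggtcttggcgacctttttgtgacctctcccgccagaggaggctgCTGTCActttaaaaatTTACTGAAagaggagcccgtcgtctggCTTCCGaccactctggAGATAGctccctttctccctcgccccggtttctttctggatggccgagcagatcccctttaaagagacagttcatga

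The window of Hlf held none of these motifs. Its end was found in 0 of 6 annotated transcripts of Hlf, so they do not bear out this start. The end of the Meis1 window was in 3 of 9, and those of Mecom in 1 and 2 of 17. That of Meis1 held a RUNX, an ETS and a PAR bZIP motif, the upstream window of Mecom a GATA and an E-box motif, and the downstream one a GATA, an ETS, a MEIS and a PAR bZIP motif. Of all 32851 promoter windows of this length, 29.8% held the GATA letters, 16.8% RUNX, 46.5% ETS, 30.6% E-box, 19.2% MEIS and 9.18% PAR bZIP. Windows were found for 8 members, 14 in all, and GATA letters were in 4 of them, RUNX in 2, ETS in 5, E-box in 3, MEIS in 2 and PAR bZIP in 2. Lmo2 and Fli1 had no window in the RefSeq table. A match is a description of the letters only, and UMIs at the 3' end cannot tell apart the transcripts that begin at the 2 starts of Mecom.

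All members were found in both pools. Since each captured molecule gives 1 UMI whatever its length, levels were compared between genes without division by length. Whether different genes are captured equally well was not examined, so the order is one of UMIs. In the WT pool the order was Lmo2 at 510.7 CPM, Meis1 at 292.1, Hlf at 235.0, Lyl1 at 233.2, Gata2 at 171.0, Fli1 at 107.1, Erg at 75.01, Runx1 at 71.8, Tal1 at 49.3 and Mecom at 32.9. Hlf and Lyl1 did not differ beyond counting error there, nor did Erg and Runx1. In the KO pool the order was Meis1 at 439.0 CPM, Lmo2 at 438.0, Lyl1 at 336.0, Gata2 at 160.1, Hlf at 146.7, Fli1 at 102.2, Runx1 at 98.9, Erg at 94.7, Mecom at 72.3 and Tal1 at 62.6. There Meis1 and Lmo2, Fli1 and Runx1, and Runx1 and Erg did not differ beyond counting error. Thus Hlf stood at rank 3 in WT and rank 5 in KO, while Meis1 and Lmo2 held the first 2 places in both. Lmo2 was above 97.6% of all genes in WT and 97.2% in KO, and Mecom above 56.5% and 76.5%. Summed over the members the level was 1778 CPM in WT and 1950 in KO.

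**Figure D1:**
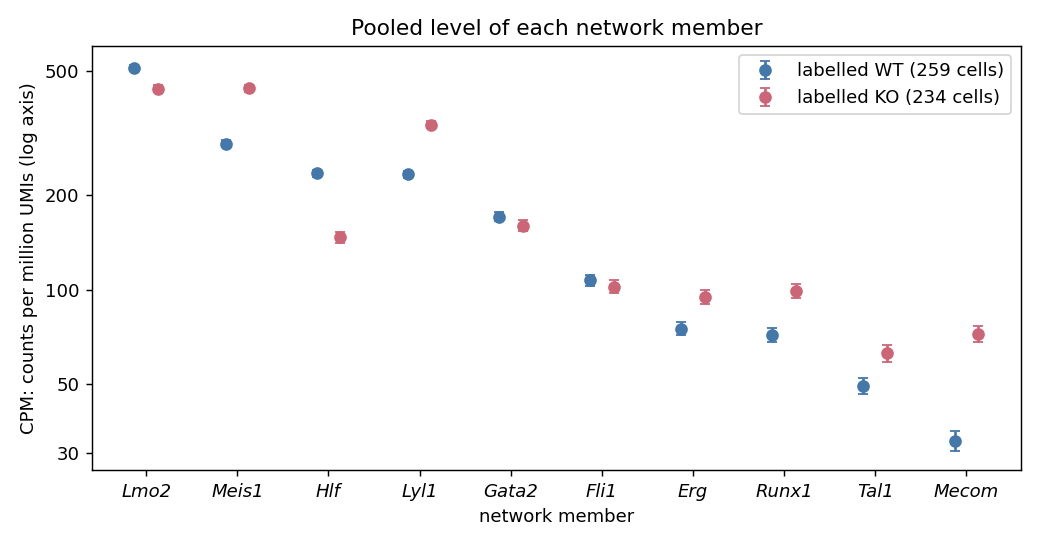
Level of each network member, in CPM on a log axis, in the pool labelled WT and the pool labelled KO. Points are pooled values and bars are exact 95% Poisson intervals, which cover counting error only. Hlf lies lower in the KO pool (146.7 against 235.0), Lmo2 lies lower too, Gata2 and Fli1 lie close together, and the other 6 members lie higher.

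The main comparison was the level in KO over that in WT, given as a log2 ratio with an exact 95% interval for counting error. Between these pools 2 members, Mecom and Meis1, were at least 1.5-fold higher and 1, Hlf, at least 1.5-fold lower. Over all 10720 genes, 17.2% were that much higher and 15.5% that much lower, so the members' counts lie near the background. With the deposited normalized values averaged over cells, 1104 genes were that much higher and 2070 that much lower, against 1849 and 1661 here. On that scale the median of all genes was -0.14 and that of the members 0.05. The interval lay above equal levels for 6 members and below for 3, against 39.2% and 35.7% of all genes. The median of the members was 0.34 and that of all genes 0.02. Intervals are narrow because pooled counts are large, and they leave out the spread between cells. At equal depth the variance of a member over cells was 3.63 to 9.87 times its mean, where counting alone gives 1. Over all genes that averaged 0.5 UMI or more per cell, the median of this ratio was 4.51 in WT and 4.59 in KO.

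Hlf was lower in the KO pool. It had 5047 UMIs in WT and 2374 in KO, a log2 ratio of -0.68 (-0.75 to -0.61), and 12.9% of all genes had a lower ratio. The median cell had 197.1 CPM of Hlf in WT and 102.0 in KO, and the upper quartiles were 399.4 and 249.0, so the distributions overlapped widely but were shifted over their whole length. With every cell thinned to 20000 UMIs, a UMI of Hlf was found in 78.0% of the WT cells, with an exact 95% binomial interval of 72.4 to 82.9, and in 67.5% (61.1 to 73.5) of the KO cells. Cells in which it was found held 7.26 UMIs of it on average in WT and 4.85 in KO, so both values were lower in KO, although the intervals of the shares overlapped. The ratio kept its direction and size by depth of cell, at -0.76 in cells with 20000 to 40000 UMIs, -0.69 with 40000 to 80000 and -0.80 with at least 80000. It was -0.64 without the cells with oocyte markers and -0.84 without the cycling cells.

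Mecom was higher in the KO pool, with 707 UMIs in WT and 1170 in KO and a log2 ratio of 1.14 (0.999 to 1.27); 5.28% of all genes had a higher ratio. This value came from the deepest cells. The ratio was -0.04 (-0.39 to 0.31) in cells with 20000 to 40000 UMIs, 0.47 (0.21 to 0.74) with 40000 to 80000 and 1.70 (1.52 to 1.88) with at least 80000, which held 101 WT cells and 60 KO cells. In that deepest class 2 cells labelled KO held 180 of its 728 UMIs. Over all kept cells the ratio was 1.12 without the cell with the most UMIs of Mecom in each label. Without the 5 such cells it was 1.11. At an equal depth of 20000 UMIs a UMI of Mecom was found in 28.6% of cells labelled WT (23.1 to 34.5) and 42.3% of cells labelled KO (35.9 to 48.9), and cells in which it was found held 3.27 and 2.94 UMIs on average. When the thinned cells were summed the ratio was 0.41, and it was 0.87 without the cycling cells.

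Meis1, with 6274 UMIs in WT and 7103 in KO, had a log2 ratio of 0.59 (0.54 to 0.64), which lies on the 1.5-fold line. It too depended on depth, at 0.08 (-0.05 to 0.21), 0.23 (0.12 to 0.33) and 0.85 (0.79 to 0.91) from the shallowest to the deepest class of cells. The median cell had 236.5 CPM in WT and 350.0 in KO. A UMI of Meis1 was found in 88.03% (83.4 to 91.7) and 95.3% (91.7 to 97.6) of thinned cells.

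**Figure D2:**
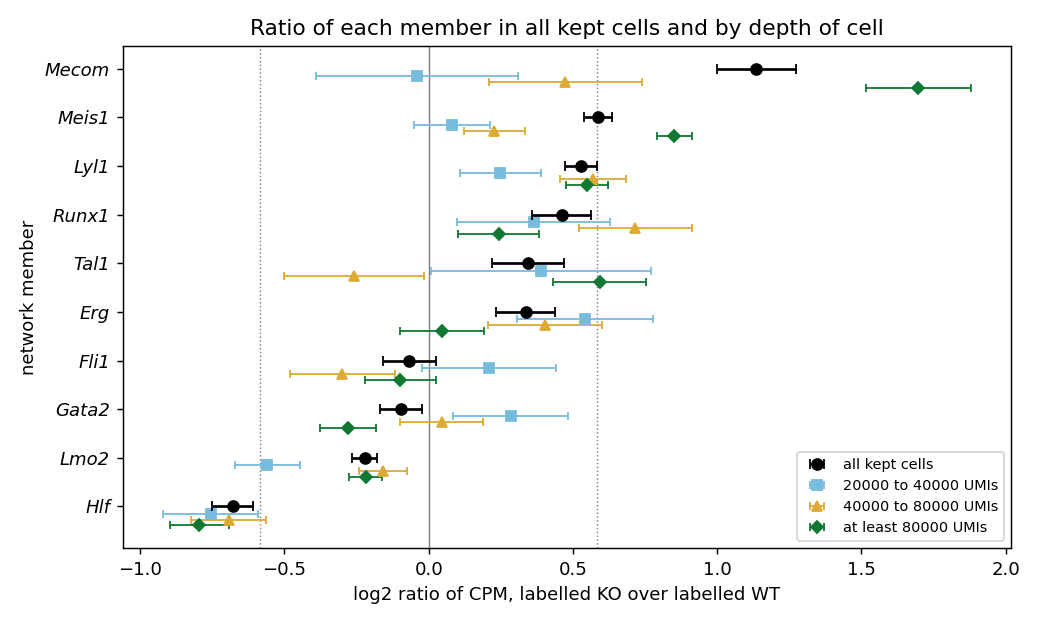
Log2 ratio of the pooled level, KO over WT, of each member in all kept cells (black) and in cells of 3 depth classes, with exact 95% intervals for counting error. Dotted lines mark 1.5-fold. Hlf lies between -0.80 and -0.68 in all 4 sets, while Mecom runs from -0.04 to 1.70.

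The members of the Gata2, Tal1 and Lmo2 complex did not move as a block. Lyl1 had 5008 and 5437 UMIs and a ratio of 0.53 (0.47 to 0.58), with 0.25, 0.57 and 0.55 in the 3 depth classes. It was found in 81.9% (76.6 to 86.3) and 91.9% (87.6 to 95.04) of thinned cells. Its relative Tal1, with 1059 and 1013 UMIs, had a ratio of 0.34 (0.22 to 0.47), but -0.26 in cells with 40000 to 80000 UMIs and 0.11 when thinned cells were summed, and was found in 35.1% (29.3 to 41.3) and 33.8% (27.7 to 40.2) of thinned cells. No direction is read for it. UMIs of Lyl1 outnumbered those of Tal1 by 4.73 to 1 in WT and 5.37 to 1 in KO. Lmo2, with 10968 and 7087 UMIs, was lower in KO, at -0.22 (-0.26 to -0.18), and lower in each depth class, at -0.56, -0.16 and -0.22. It was found in nearly every cell of both pools, 98.46% and 97.0%. Gata2, with 3673 and 2590 UMIs, had a ratio of -0.10 (-0.17 to -0.02), with 0.28, 0.05 and -0.28 by depth class, so its sign turned with depth.

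Runx1 and Erg, each close to 100 CPM or below, were higher in KO by less than 1.5-fold. Runx1 had 1542 and 1600 UMIs and a ratio of 0.46 (0.36 to 0.56), with 0.36, 0.72 and 0.24 by depth class. Erg had 1611 and 1533 UMIs and a ratio of 0.34 (0.24 to 0.44), with 0.54, 0.40 and 0.05. Erg was found in 42.5% (36.4 to 48.7) and 54.7% (48.1 to 61.2) of thinned cells and Runx1 in 46.7% (40.5 to 53.0) and 53.8% (47.2 to 60.4), and in both cases the intervals overlapped. Fli1, the other ETS factor, had 2299 and 1653 UMIs and a ratio of -0.07 (-0.16 to 0.02), with 0.21, -0.30 and -0.10 by depth class, and was found in 58.7% and 57.3% of thinned cells. UMIs of Fli1 outnumbered those of Erg by 1.43 to 1 in WT and 1.08 to 1 in KO. Since endothelial cells use Erg and Fli1, their markers were examined: 7 of 14 were in the table, without Cdh5, at a summed 417.8 CPM in WT and 452.6 in KO. Without the 8 and 9 cells with over 1000 CPM of the markers other than Emcn and Esam, the ratio of Erg was 0.37 and that of Fli1 -0.06.

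A gene that HSCs should lack was set beside these shares. The egg coat gene Zp3 was found in 44.8% of thinned cells labelled WT and 8.12% of those labelled KO, and in 33.7% and 7.36% without the cells with oocyte markers. It was abundant where it came from, with 95.3% of its WT UMIs in the 66 cells with oocyte markers, and whether its share applies to less abundant genes was not tested. The WT shares of Erg, Tal1 and Mecom lie below 44.8%, so the share differences of Erg and Mecom are not read as numbers of cells that express the gene. In cells labelled WT with oocyte markers, Mecom had 25.1 CPM and Erg 99.9, against 35.6 and 66.5 in the other cells labelled WT. Without these cells the log2 ratio was 1.03 for Mecom, 0.51 for Erg, 0.49 for Lyl1, 0.37 for Runx1, 0.36 for Tal1, -0.16 for Gata2, -0.20 for Fli1 and -0.27 for Lmo2, and Meis1 came to 0.49, below the 1.5-fold line.

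**Figure D3:**
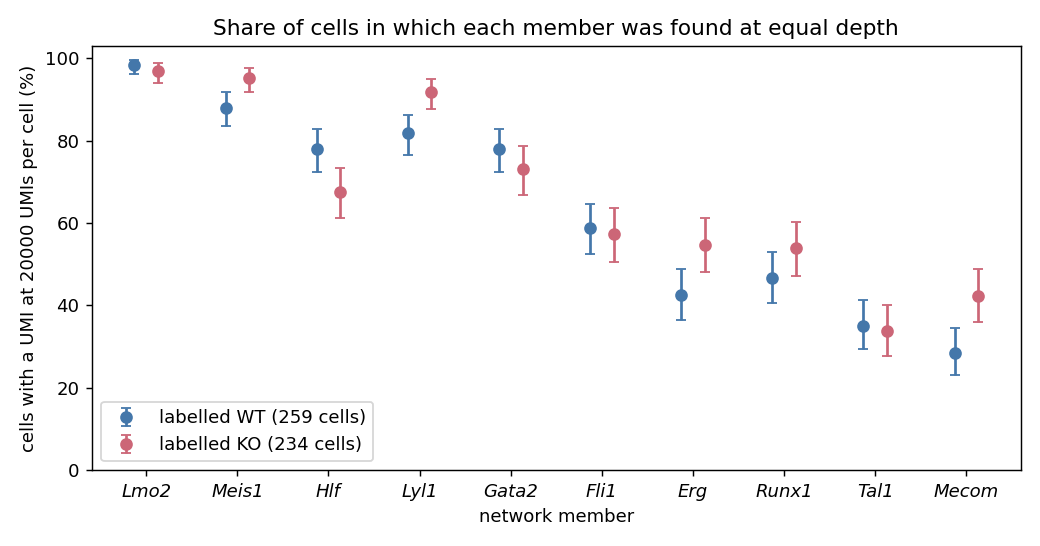
Share of cells with at least 1 UMI of each member after every cell was thinned to 20000 UMIs, in 259 cells labelled WT and 234 labelled KO. Bars are exact 95% binomial intervals for counting error. Intervals of the labels do not overlap for Lyl1, Mecom and, by a hair, Meis1, and shares run from 28.6% for Mecom to 98.46% for Lmo2 in WT. With another random thinning the shares of Meis1 were closer, at 88.4% in WT and 94.4% in KO, so no separation is read for it. The share of all genes whose intervals lie apart is not given here, so no excess among the members is read.

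The members found in each cell were then counted, where a member without a UMI may still be expressed. At 20000 UMIs the median cell held UMIs of 6 members in WT and 7 in KO, with a range of 2 to 10 and 3 to 10. At least 7 members were found in 48.6% of cells labelled WT (42.4 to 54.9) and 54.7% of cells labelled KO (48.1 to 61.2), and all 10 in 2 and 8 cells. Without thinning the median was 8 members in both pools.

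**Figure D4:**
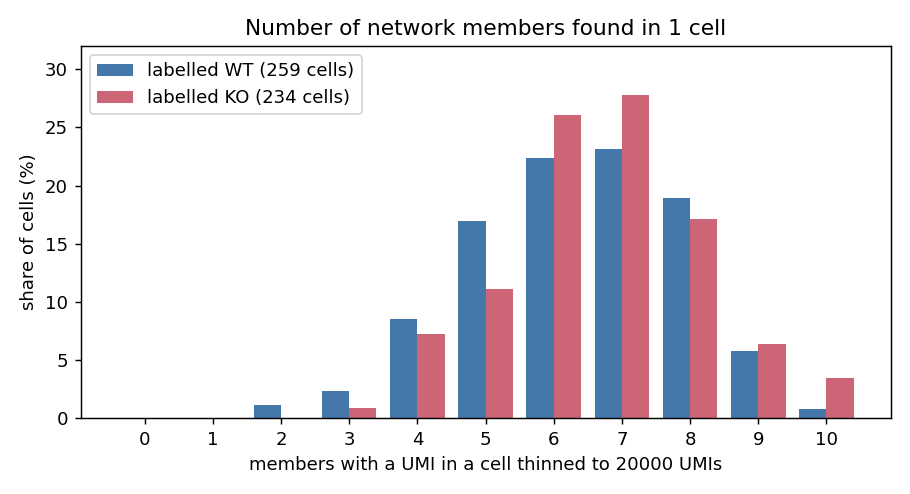
Number of network members with at least 1 UMI in a cell thinned to 20000 UMIs, as a share of 259 cells labelled WT and 234 labelled KO. The commonest number is 7 in both, at 23.2% of WT and 27.8% of KO cells.

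Members were next set against each other across cells. Pearson's r of log2(UMI + 1) at equal depth was computed for the 45 pairs within each label, where cells share libraries and most counts are low. It ran from -0.08 to 0.16 in WT, with a median of 0.05, and from -0.16 to 0.17 in KO, with a median of 0.01. No pair reached 0.2 in size, below which values were not read. With another random thinning 1 pair did, Gata2 and Runx1 in KO, at 0.24 against 0.17. With the deposited values, in which depth differs between cells, 6 pairs passed 0.2 in WT and 0 in KO, the highest at 0.30. Of 130 pairs of a member with 1 of 13 surface, cycle and lineage genes, 5 passed 0.2 in size in WT and 1 in KO. Hlf gave 3 of the 5. In WT its r was -0.38 with Itga2b, which encodes CD41 of the megakaryocyte lineage, -0.34 with Mki67, a gene of cycling cells, and 0.23 with Procr, an HSC surface receptor. The values in KO were -0.07, -0.07 and 0.17, and the difference between labels was not tested. Lyl1 gave the other two, at -0.24 with Mki67 and 0.21 with Procr in WT, against 0.04 and 0.05 in KO. Without the cells with oocyte markers the WT values of Hlf were -0.46 with Itga2b, -0.35 with Mki67 and 0.26 with Procr.

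Pooled levels were also compared between the cells called cycling and the rest, where the WT cells called cycling may include cells with oocyte markers. In WT, cells with at least 1000 CPM of the G2M genes had 131.9 CPM of Hlf and the other cells 274.9, and for Lyl1 the values were 113.2 and 279.7. In KO they were 103.7 and 153.7 for Hlf, and 294.7 and 342.7 for Lyl1. The largest difference in that direction in KO was that of Meis1, with 282.4 CPM in cycling cells and 464.5 in the rest, against 233.8 and 314.7 in WT. Mecom was higher in the 23 cycling cells in KO, at 118.7 CPM against 64.8, but not in WT, at 26.7 against 35.3. Fli1 was higher in cycling cells in both, at 118.9 against 102.5 in WT and 118.7 against 99.5 in KO. Without the cycling cells the KO to WT log2 ratio was 0.29 for Lyl1, 0.56 for Meis1, 0.45 for Runx1, 0.35 for Tal1, 0.26 for Erg, -0.04 for Fli1, -0.21 for Gata2 and -0.32 for Lmo2.

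Among 9325 genes that averaged 0.5 UMI or more, those most like the summed level of the members across cells were Eef1a1, Txnip, B2m, Itm2b and Rpl13, with a mean r over the labels of 0.30, 0.27, 0.27, 0.25 and 0.25 over 259 and 234 cells. The single gene most like Hlf was Ifitm1, at 0.41 in WT and 0.13 in KO, and the one most like Lmo2 was Eef1a1, at 0.27 and 0.21. For the other members the highest mean r was at most 0.20: Tmem242 for Gata2, Rgs14 for Runx1, Agap2 for Tal1, Ppp1r18 for Lyl1, Rin3 for Erg, Tuba8 for Fli1, Vcp for Meis1 and Akap13 for Mecom. Values under 0.2 are not read, so no likeness is claimed for these members. All genes named here were picked as the highest among 9325 in these same cells. The height that chance alone would give was not computed.

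The genes around the network were then described, list by list. Of 25 complex partners, 3 were at least 1.5-fold higher in KO and 1 lower, with a median of 0.24. Ldb1, the adaptor of Lmo2, was the highest, with 527 and 740 UMIs and a ratio of 0.90 (0.74 to 1.06), and the corepressors Cbfa2t3 at 0.62 and Cbfa2t2 at 0.61 followed. Cbfb, the partner of Runx1, was at 0.48, and among the E proteins Tcf4 was at 0.51, Tcf3 at 0.41 and Tcf12 at -0.46. No partner was 2-fold apart, so these were named for their role after their values were seen.

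Of 26 family relatives in the table, 6 were at least 1.5-fold higher and 6 lower, with a median of 0.10. Tef, a PAR bZIP relative of Hlf, was higher, with 190 and 289 UMIs and a ratio of 1.01 (0.74 to 1.29), while Hlf itself was lower. UMIs of Hlf outnumbered those of Tef by 26.6 to 1 in WT and 8.21 to 1 in KO. Gata1, the erythroid and megakaryocyte GATA factor, was lower, with 660 and 177 UMIs and a ratio of -1.49 (-1.74 to -1.25). Meis2, with 519 and 2 UMIs, and Meis3, with 122 and 4, were at or near the floor of 3 UMIs in KO. Without the cells with oocyte markers Meis2 had 32 UMIs in WT and 2 in KO, and Meis3 had 63 and 4. Of the inhibitors of E proteins, Id3 had 305 and 1 UMIs, and 55 and 1 without those cells, while Id1 was at 0.15 and Id2 at -0.40.

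Of 24 other stem cell transcription factors, 8 were at least 1.5-fold higher and 2 lower, with a median of 0.24. The Ikaros family genes Ikzf2, at 1.09 (0.92 to 1.26), and Ikzf1, at 1.04 (0.92 to 1.17), were the highest. Of 29 genes widely described as targets of the network, 8 were at least 1.5-fold higher and 5 lower, with a median of 0.19. Selp, a platelet and endothelial adhesion receptor, was at 1.16 (0.97 to 1.34) and Flt3, a cytokine receptor of multipotent progenitors, at 1.03 (0.81 to 1.26). On the other side were Slamf1, which encodes CD150, at -2.26 (-2.53 to -1.99), Esam, an HSC and endothelial adhesion protein, at -1.39 (-1.52 to -1.26), and Gp1ba, a platelet receptor, at -1.08 (-1.73 to -0.46). The study picked Esam on these cells, so its direction is not independent evidence. Of 14 lineage transcription factors in the table, 4 were higher and 2 lower, with a median of 0.18. Irf8, a myeloid factor, was the highest, with 336 and 705 UMIs and a ratio of 1.48 (1.29 to 1.67), and Klf1, an erythroid factor, the lowest, with 213 and 39 UMIs and a ratio of -2.04 (-2.57 to -1.54). Single cells weighed on some of these values: without the cell with the most UMIs of the gene in each label, the ratio of Irf8 was 2.15, that of Gata1 -2.36 and that of Gp1ba -1.76, and Klf1 was left with 160 and 2 UMIs. The counts of all these lists stand beside the 17.2% of all genes that were higher and the 15.5% that were lower.

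**Figure D5:**
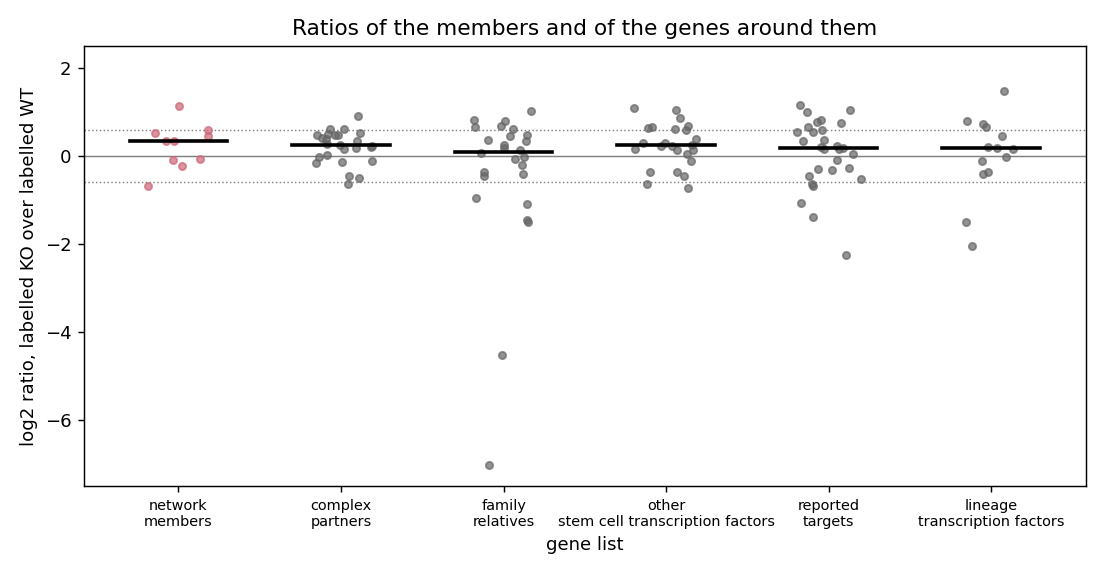
Log2 ratio, KO over WT, of the network members and of the genes of 5 lists around them. Each point is a gene, the thick bar is the median of the list, and dotted lines mark 1.5-fold. Medians lie between 0.10 and 0.34, and the lowest points are Meis2 and Meis3 among the family relatives.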

How the data were processed

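UMIs were counted by the authors after alignment to the mm9 mouse transcriptome, poor cells and genes with low mean counts were left out, and counts were normalized; the aligner and the normalization were not given in the sources used here. The deposited table holds log2(normalized count + 1) of 10720 genes for each of 586 cells. Per cell, the values with the log2 undone were divided by their smallest value above 0, which gave whole UMI counts for 100% of values within a tolerance of 0.01.

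Columns name the genotype only, with neither library nor cell barcode, so libraries and shared barcodes could not be examined and the planned tests across libraries did not apply. Each label was 1 pool, with no p-value. UMIs were summed over cells with at least 2000 genes and 20000 UMIs and scaled to 1000000 (CPM), and pooled counts under 3 were raised to 3. Log2 ratios and shares have exact 95% Clopper-Pearson intervals and levels Poisson intervals, all for counting error only. For shares and correlations each cell was thinned at random to 20000 UMIs. No doublet caller was run on these hand-picked cells. Ratios and intervals were checked on simulated pools that held counting error only. These had no spread between cells, libraries or mice, so the check says nothing about that spread. Python 3.11.15, numpy 2.4.6 and scipy 1.17.1 were used.

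The members and gene lists were chosen with earlier results of these data known. Genes named are the members, Med23 and, in each list, up to 3 genes each way at least 2-fold apart with at least 50 UMIs in both pools together; exceptions are stated, and some items are not reported here. Promoter windows came from RefSeq on GRCm38.p6. Other cell sets, scalings and thinning depths were tried as alternatives.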

Additional observations from a re-analysis of the deposited data

How the results depend on the processing

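No paired analysis was possible because cells are labelled by genotype alone, without a library or replicate number, and nothing here was tested. Leaving out each library and a replicate block were not run for that reason. The depth classes, leaving out cycling cells or the 5 cells with the most UMIs of a gene, and another thinning seed were chosen after seeing the data. Pooled counts are dominated by deep cells, and intervals leave out the spread between cells, libraries and mice. Where values moved, the cause was not tested.

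The log2 ratio of Hlf was below -0.6 under all 17 alternatives on the ratio scale: -0.84 with cells of 30000 to 100000 UMIs, -0.79 and -0.82 with cells thinned under each seed, -0.76 and -0.80 in the shallowest and deepest class, -0.84 without cycling cells and -0.79 without the 5 top cells. As a mean over cells of log2(CPM/100 + 1), a smaller scale, it was -0.42. Mecom reversed in the shallowest class, at -0.041, and was 0.47 and 1.70 in the deeper classes, 0.67 with cells of 30000 to 100000 UMIs, 0.41 and 0.52 with thinned cells, 0.60 with the authors' normalized values, 0.87 without cycling cells and 0.19 as a mean over cells. Meis1 was 0.081, 0.23 and 0.85 in the depth classes, 0.23 with cells of 30000 to 100000 UMIs, 0.39 with cells thinned under either seed, 0.28 with the authors' values, 0.49 without the cells with oocyte markers and 0.36 as a mean over cells.

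The number of members at least 1.5-fold higher, 2 as reported, was 0 with thinned cells under either seed and in the shallowest class. It was 1 with cells of 30000 to 100000 UMIs, with median-of-ratios, upper-quartile and TMM scaling, with the authors' values, without cells with oocyte markers, without cycling cells, without the 5 top cells and in the class of 40000 to 80000 UMIs, where the 1 was Runx1, at 0.72. It was 3 with at least 3000 genes and 30000 UMIs and in the deepest class. The number at least 1.5-fold lower was 1 under every alternative. Over all genes, those higher numbered 1104 with the authors' values against 1849, and those lower 2070 against 1661. The median of the members ranged from 0.05 to 0.37 over 17 alternatives. The median number of members per cell was 8 in both labels without thinning, 6 in KO at 10000 UMIs and 7 in WT without the cells with oocyte markers.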
